A study of Mus musculus with 14 samples.

Results

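WDR5 is a core subunit shared by the MLL family of histone H3 lysine 4 methyltransferases, and it holds the catalytic subunit, the other core subunits and histone H3 together. MLL1 is one of these enzymes and needs its contact with WDR5 for full activity. The mark followed here, dimethylation of H3 lysine 4 (H3K4me2), is typical of active promoters and enhancers. Positions where WDR5 was called after MLL1 was deleted, and also after its contact with WDR5 was blocked, but in neither control, are called treated-only peaks below.

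Treated-only peaks were the WDR5 peaks on the 19 autosomes in MM-401-treated cells that shared at least 1 bp with a WDR5 peak of 4OHT-treated cells and shared none with a WDR5 peak of either solvent control. There were 1057 of them among 17067 autosomal WDR5 peaks under MM-401, or 6.19%. These peaks were chosen by their WDR5 calls in the 4 lists, so WDR5 values are descriptions, while H3K4me2 and MLL1 were not used in the choice.

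MLL-AF9 is a leukemia fusion protein that carries the N terminus of MLL1, and the cells were mouse bone marrow cells transduced with it (MAF9). MAF9 cells received MM-401, a small molecule that blocks the MLL1-WDR5 contact, at 20 µM for 2 days, or DMSO. The second cells were MLL1 flox/flox, ER-cre+/- and also transduced with MLL-AF9 (Mll1 flox cells). They received 4OHT, which activates the Cre recombinase that deletes the floxed Mll1 alleles, at 400 nM for 2 days, or ethanol (EtOH), so the floxed alleles and Cre were present in both of these groups. All cells grew with 15% serum and 10 ng per ml interleukin-3. MM-401 and Mll1 deletion were thus applied in different cells, and treatment and cells cannot be told apart between them. Chromatin immunoprecipitation with sequencing gave 1 peak list per library for WDR5 and H3K4me2 in all 4 conditions and for MLL1 in DMSO and MM-401. Deletion of Mll1 could not be checked in these lists, since no MLL1 list of the Mll1 flox cells was analysed here.

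The 10 lists held positions on the mouse build mm9 and no heights or read counts, so depth was unknown, and the lists cannot tell weak binding below the calling threshold from none. The autosomal WDR5 lists held 14289 peaks for DMSO and 17067 for MM-401, against 33974 for EtOH and 40439 for 4OHT. Each condition had 1 library per antibody, and no test between conditions was possible. Shares carry 95% Wilson intervals in parentheses, which reflect counting error alone, as if all peaks were independent.

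The number of treated-only peaks was close to that of every other pairing of 1 MAF9 list with 1 Mll1 flox list. WDR5 peaks of DMSO that were called in EtOH and under neither treatment numbered 1231. Those shared by MM-401 and EtOH alone numbered 1114, and those shared by DMSO and 4OHT alone numbered 1061. The treated lists thus shared no more peaks outside the controls than a treated and an untreated list shared outside the other lists. As a share of the MAF9 list, the pairings gave 6.19% (5.84 to 6.56%) for MM-401 with 4OHT and 6.53% (6.17 to 6.91%) for MM-401 with EtOH, with overlapping intervals. They gave 8.62% (8.17 to 9.09%) for DMSO with EtOH and 7.43% (7.01 to 7.87%) for DMSO with 4OHT.

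This order depended on list length and on the distance allowed. With all WDR5 lists reduced to the widest peaks in the number of the shortest, 662 peaks were treated-only, the fewest of the 4 pairings, against 1084 for DMSO with EtOH, 752 for MM-401 with EtOH and 843 for DMSO with 4OHT. When lists were matched within 2 kb, 1262 were treated-only, the most of the 4 pairings, against 802, 1070 and 827.

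**Figure D1:**
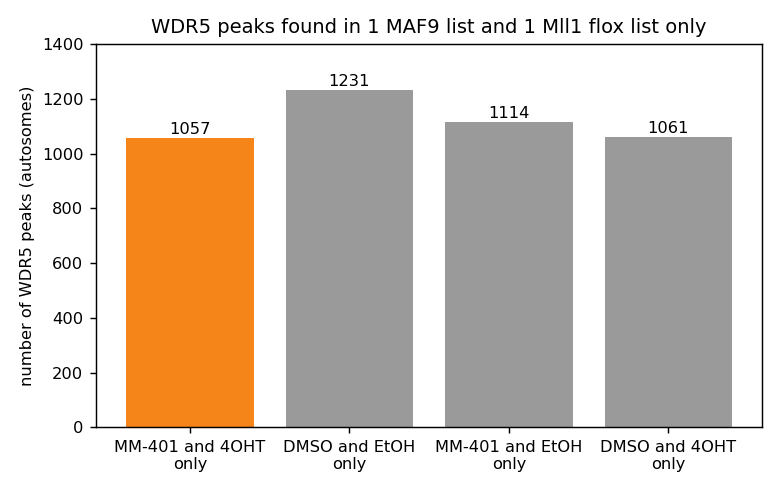
Number of autosomal WDR5 peaks (vertical axis) found in 1 MAF9 list and 1 Mll1 flox list and in neither of the other WDR5 lists, as MAF9 peaks, with 1 library per list. The treated-only peaks (orange, 1057) lie at the low end of the 4 pairings, which reach 1231.

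Of the other MM-401 WDR5 peaks, 8309 were in no other WDR5 list, 1519 were in all 4 lists, 2349 were shared with DMSO alone, and the rest with other combinations. The peaks in the MM-401 list alone and those in all 4 lists serve as comparisons below.

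Treated-only peaks were narrow. Their width ran from 75 to 600 bp with a median of 150 bp, equal to the median of all MM-401 WDR5 peaks. Peaks in all 4 lists had a median of 325 bp, and those in the MM-401 list alone 125 bp. At most 100 bp wide were 28.2% (25.6 to 31.0%) of treated-only peaks, 28.1% (27.5 to 28.8%) of all MM-401 peaks and 41.7% (40.7 to 42.8%) of those in the MM-401 list alone. A wider peak has more chance of sharing a base with another list, so width is touched by the rule. The 4OHT peaks over the treated-only peaks had a median width of 200 bp.

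The MM-401 and 4OHT peaks seldom coincided exactly. Their centres lay a median of 75 bp apart, with an interquartile range of 37.5 to 125 bp. They shared a median of 75 bp, and in 64.8% (61.9 to 67.6%) of cases the shared bases covered at least 50% of the MM-401 peak. Both boundaries were the same for 14 of 1057 peaks. In 186 cases, or 17.6% (15.4 to 20.0%), the 4OHT peak itself touched a control WDR5 peak that the MM-401 peak did not reach. Without those, 871 peaks remained.

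The rule has sharp edges on a grid of 25 bp, on which these lists place all boundaries. Just inside it, 77 treated-only peaks abutted a control WDR5 peak and 68 lay 26 bp from one, and 139 shared only 25 bp with the 4OHT peak. Just outside it, 78 MM-401 peaks that overlapped 4OHT were left out by 25 bp shared with a control peak, and 144 in no control list abutted a 4OHT peak without sharing a base.

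Most treated-only peaks lay beside WDR5 that had been called in a control. The distance to the nearest control WDR5 peak, from edge to edge and with abutting peaks at 1 bp, had a median of 426 bp. Within 100 bp of a control peak were 251 treated-only peaks, or 23.7%. Within 1 kb of a control peak were 638 of 1057, or 60.4% (57.4 to 63.3%). With only the widest 50% of every list, the median distance was 2151 bp, so fewer than 50% then lay within 1 kb. The next steps held 156 peaks at 1 to 5 kb, 173 at 5 to 20 kb, 82 at 20 to 100 kb and 8 beyond 100 kb. Peaks in the MM-401 list alone lay farther away, with a median of 2501 bp and 39.3% (38.3 to 40.4%) within 1 kb.

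The longer EtOH list was the nearer control more often. It held the nearest peak for 693 treated-only peaks, against 334 for DMSO and 30 at equal distance. A DMSO peak lay within 1 kb of 35.3% (32.5 to 38.2%) and an EtOH peak within 1 kb of 50.8% (47.8 to 53.8%), and 272 peaks, or 25.7% (23.2 to 28.5%), had both. The other pairings also lay close to the lists they exclude, with 67.0% (64.3 to 69.6%) within 1 kb for DMSO with EtOH, 59.3% (56.4 to 62.2%) for MM-401 with EtOH and 66.2% (63.3 to 68.9%) for DMSO with 4OHT.

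**Figure D2:**
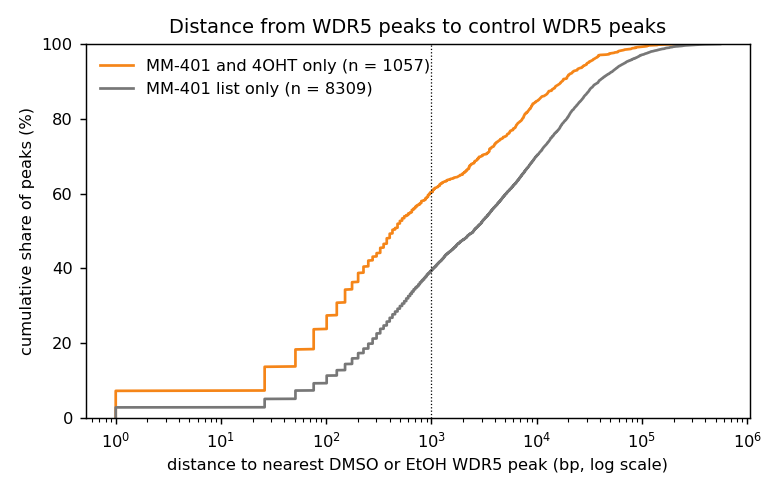
Cumulative share of peaks (vertical axis, %) against the distance to the nearest DMSO or EtOH WDR5 peak (horizontal axis, bp, log scale), for treated-only peaks (orange, 1057) and MM-401 peaks in no other WDR5 list (grey, 8309). At 1 kb (dotted line) the curves stand at 60.4% and 39.3%.

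The control peaks next to treated-only peaks were themselves called under a treatment in part. A DMSO peak lay within 1 kb of 373 treated-only peaks. The nearest was overlapped by another MM-401 peak for 26.3% (22.1 to 31.0%) of them and by a 4OHT peak for 45.6% (40.6 to 50.7%). That 4OHT peak can be the one over the treated-only peak itself. A control peak nearest to more than 1 treated-only peak was counted for each. Over all autosomal DMSO WDR5 peaks the shares were 40.3% and 30.3%. For the 537 treated-only peaks with an EtOH peak within 1 kb, the nearest was overlapped under MM-401 for 16.6% (13.7 to 20.0%) and under 4OHT for 48.0% (43.8 to 52.3%). Over all EtOH peaks the shares were 13.5% and 18.7%. All of these shares come from the lists that chose the treated-only peaks and are descriptions.

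H3K4me2 overlapped nearly all treated-only peaks, in the solvent controls as well as under treatment. In DMSO 951 of 1057 overlapped an H3K4me2 peak, or 90.0% (88.0 to 91.6%), where all MM-401 WDR5 peaks gave 84.5%. Under MM-401 the count was 1007, or 95.3% (93.8 to 96.4%), against 88.0%. In EtOH it was 1005, or 95.1% (93.6 to 96.2%), against 85.9%, and under 4OHT 967, or 91.5% (89.6 to 93.0%), against 83.6%. In all 4 conditions the share exceeded that of all MM-401 WDR5 peaks and that of peaks in the MM-401 list alone by more than the intervals. The latter gave 79.8% for DMSO and 81.8% for MM-401, and in Mll1 flox cells 78.9% for EtOH and 77.2% for 4OHT. Peaks in all 4 WDR5 lists had 88.5% (86.8 to 90.0%) for DMSO and 95.9% (94.7 to 96.7%) for MM-401, and then 96.9% (95.9 to 97.7%) for EtOH and 94.5% (93.2 to 95.5%) for 4OHT, each interval overlapping that of the treated-only peaks except under 4OHT. The pairing of MM-401 with EtOH gave 87.3% (85.3 to 89.2%), 93.0% (91.3 to 94.4%), 93.9% (92.3 to 95.2%) and 90.7% (88.8 to 92.2%) in the same order, with intervals that overlapped those of the treated-only peaks in all 4 conditions. As DMSO peaks, the pairing with EtOH gave 90.7, 95.7, 97.7 and 94.2%, and that with 4OHT 88.7, 95.7, 97.5 and 94.4%.

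Positions nearby were much poorer in the mark. When treated-only peaks were moved by 10, 20, 30, 40 and 50 kb to both sides, H3K4me2 was met on average at 15.4% and 14.1% for DMSO and MM-401 and at 17.2% and 15.3% for EtOH and 4OHT, and no single move exceeded 20.5%. All MM-401 WDR5 peaks, moved in the same way, gave 13.9, 12.7, 15.2 and 13.5% in that order. The contrast with nearby positions was thus shared by WDR5 peaks at large.

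**Figure D3:**
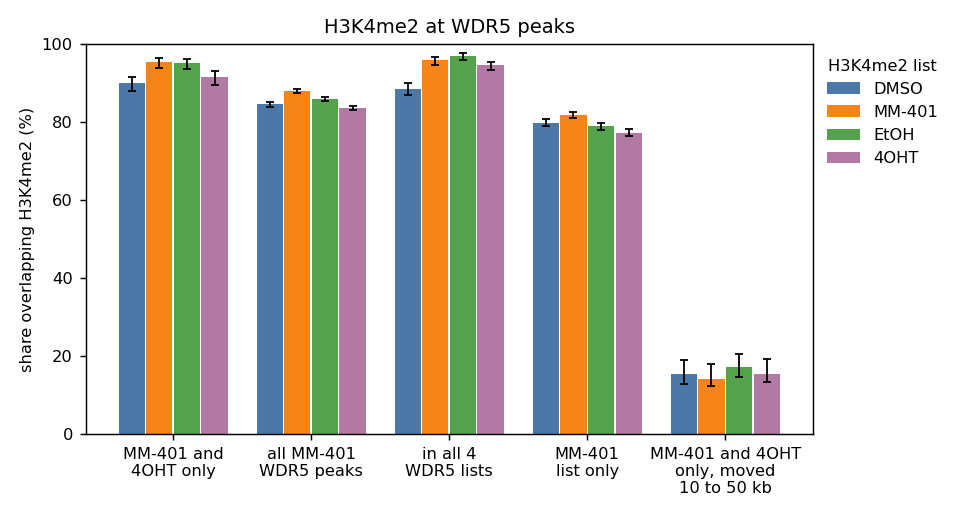
Share of WDR5 peaks overlapping H3K4me2 (vertical axis, %) in the DMSO, MM-401, EtOH and 4OHT lists (colours). Bars are treated-only peaks, all MM-401 WDR5 peaks, peaks in all 4 WDR5 lists, peaks in the MM-401 list alone, and treated-only peaks after moves. Error lines are 95% Wilson intervals, and for the moves the lowest and highest of 10. Treated-only peaks stand between 90.0 and 95.3%, and their moved positions between 14.1 and 17.2%.

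The excess over the MM-401 list alone was present among peaks of like width up to 200 bp. At up to 100 bp, 84.9% (80.4 to 88.5%) of 298 treated-only peaks lay in DMSO H3K4me2, against 73.2% (71.7 to 74.6%) of 3468 in the MM-401 list alone. In EtOH H3K4me2 the shares were 94.6% (91.5 to 96.7%) and 73.1% (71.6 to 74.5%). Between 100 and 200 bp they were 89.6% (86.6 to 92.0%) and 82.6% (81.4 to 83.8%) in DMSO and 94.2% (91.7 to 95.9%) and 81.4% (80.2 to 82.6%) in EtOH. Between 200 and 300 bp the DMSO intervals overlapped barely, with 96.1% (92.5 to 98.0%) against 90.8% (88.8 to 92.6%), while those for EtOH did not. Above 300 bp the classes were small. Up to 500 bp the DMSO shares were 97.1% (89.9 to 99.2%) of 68 and 93.7% (89.2 to 96.3%) of 189, and above 500 bp the order was reversed, with 5 of 6 treated-only peaks against 7 of 7 in every list. At up to 100 bp the pairing of MM-401 with EtOH also exceeded the MM-401 list alone, with 84.7% (79.9 to 88.5%) in DMSO and 94.8% (91.4 to 96.9%) in EtOH.

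The excess of treated-only peaks over the MM-401 list alone was also present far from control WDR5. Among the 263 treated-only peaks over 5 kb from any control WDR5 peak, H3K4me2 was called at 85.9% (81.2 to 89.6%) and 93.2% (89.4 to 95.6%) for DMSO and MM-401. For EtOH and 4OHT it was called at 89.4% (85.0 to 92.5%) and 85.2% (80.4 to 89.0%). Peaks in the MM-401 list alone at such distances had 64.4%, 66.7%, 59.9% and 57.9%. No excess beyond the intervals was found within 1 kb of a control peak, where most treated-only peaks lie. There, treated-only peaks were lower in DMSO, with 91.4% (88.9 to 93.3%) against 94.7% (93.9 to 95.4%). They also had the lower value for MM-401, with 96.6% against 96.9%, and for 4OHT, with 94.5% against 95.4%, and the higher for EtOH, with 98.1% (96.7 to 98.9%) against 96.5% (95.8 to 97.1%), all 3 with overlapping intervals.

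Most treated-only peaks lay where the solvent controls also had the mark. H3K4me2 was called in both solvents at 934 treated-only peaks, or 88.4% (86.3 to 90.2%), against 80.7% of all MM-401 WDR5 peaks, and at 216 of the 263 far from control WDR5, or 82.1% (77.0 to 86.3%). All 4 H3K4me2 lists held 912 of 1057, or 86.3% (84.1 to 88.2%), against 78.2%, and no list held 24, or 2.27% (1.53 to 3.36%), against 8.67%. The other 121 were in 1 to 3 lists, the most common pattern being all lists but DMSO, with 38 peaks. Only 3 peaks had H3K4me2 under both treatments and in neither solvent, or 0.284% against 0.346% of all MM-401 WDR5 peaks, and 3 had it in both solvents and under neither treatment, against 0.305%.

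The few differences between treated and solvent lists ran in opposite directions in MAF9 and Mll1 flox cells. Under MM-401, 64 treated-only peaks had H3K4me2 that DMSO lacked, or 6.05% (4.77 to 7.66%) against 5.31% of all MM-401 peaks, and 8 had it in DMSO but not under MM-401, or 0.757% (0.384 to 1.49%) against 1.74%. In Mll1 flox cells the excess was on the solvent side. There, 12 had H3K4me2 under 4OHT alone, or 1.14% (0.651 to 1.97%) against 1.71%, and 50 in EtOH alone, or 4.73% (3.61 to 6.18%) against 4.09%. Counted as 4OHT peaks in place of MM-401 peaks, the excess on the EtOH side was smaller, with a difference of -0.667 percentage points in place of -3.60.

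In the more frequent direction of difference, the list without the mark at the peak mostly had it on both sides. The flanks of the 8 peaks with H3K4me2 in DMSO and not under MM-401 were not counted by themselves. Nor were those of the 12 under 4OHT and not in EtOH. Of the 64 peaks with H3K4me2 under MM-401 and not in DMSO, 47 had DMSO H3K4me2 within 1 kb on both sides, or 73.4% (61.5 to 82.7%), and 58 on at least 1 side. Of the 50 with H3K4me2 in EtOH and not under 4OHT, 38 had 4OHT H3K4me2 within 1 kb on both sides, or 76.0% (62.6 to 85.7%). Among all MM-401 WDR5 peaks, 906 and 698 differed in these 2 ways, and their flanks were not counted. Whether the 73.4 and 76.0% are particular to treated-only peaks was thus not tested. Of the 106 treated-only peaks outside DMSO H3K4me2, 61.3% (51.8 to 70.0%) were flanked on both sides, against 27.1% of all MM-401 WDR5 peaks outside it. For the MM-401 list it was 46.0% (33.0 to 59.6%) of 50 against 13.4%. The EtOH list gave 23.1% (13.7 to 36.1%) of 52 against 8.30%, and the 4OHT list 47.8% (37.8 to 58.0%) of 90 against 16.6%. These shares are of peaks outside the mark. Counted over all peaks, the EtOH gaps held 12 of 1057 treated-only peaks and 199 of 17067 MM-401 WDR5 peaks, which are near equal shares. Of the same totals, the DMSO gaps held 65 and 718, the MM-401 gaps 23 and 273, and the 4OHT gaps 43 and 467. These contrasts are smaller than those among peaks outside the mark.

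The profile of calls around the peak centres covered all treated-only peaks. At the centre itself, H3K4me2 was called at 84.5% of treated-only peaks in DMSO and 91.7% under MM-401, while at 1 kb on the left and right the DMSO values were 67.3 and 67.5% and those of MM-401 68.8 and 68.5%. The DMSO and MM-401 lists thus differed more at the centre than 1 kb to either side. For the Mll1 flox cells the values were 92.8% in EtOH and 87.9% under 4OHT at the centre, and 76.2 and 77.5% in EtOH and 72.5 and 73.5% under 4OHT at 1 kb. At 2 kb they were 55.6 and 52.8% in EtOH and 46.6 and 46.8% under 4OHT, so these lists differed more there than at the centre.

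**Figure D4:**
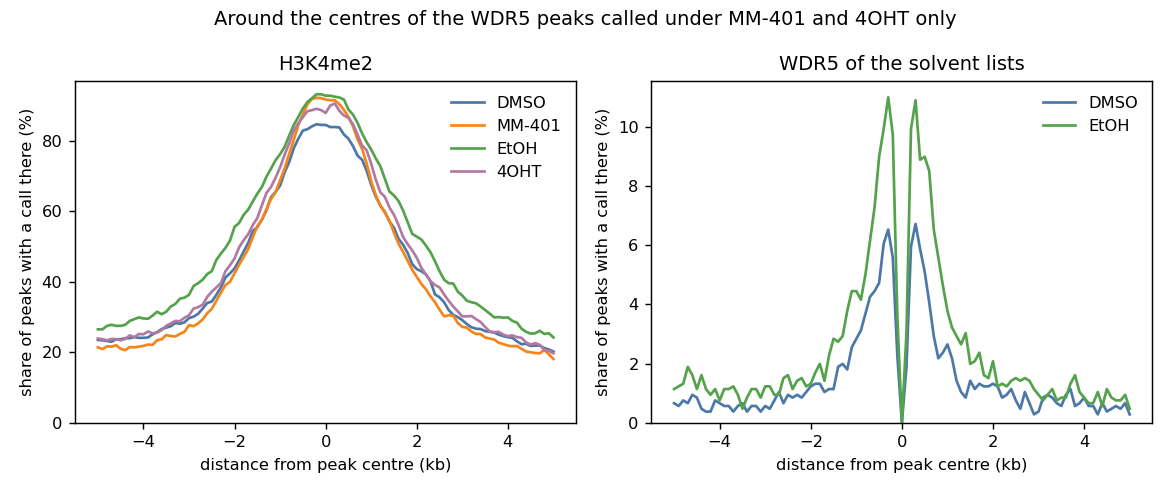
Share of the 1057 treated-only peaks with a call (vertical axes, %) at each distance from the peak centre (horizontal axes, kb), for H3K4me2 in 4 lists (left) and WDR5 in the solvent lists (right). H3K4me2 is highest within 200 bp of the centre in every list, with DMSO lowest at 84.5% at the centre, and control WDR5 stands close to both sides of the centre, where the rule holds it at 0.

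The H3K4me2 peaks over treated-only peaks were long. Their median width was 2350 bp for DMSO and 2750 bp for MM-401, and it was 4025 bp for EtOH and 3150 bp for 4OHT, where those over all MM-401 WDR5 peaks had 2125, 2400, 3225 and 2650 bp. Treated-only peaks were mostly well inside them. Wholly inside were 87.0% (84.7 to 89.0%) of those overlapped in DMSO, 91.5% (89.6 to 93.0%) for MM-401, 95.1% (93.6 to 96.3%) for EtOH and 91.3% (89.4 to 92.9%) for 4OHT. Over all MM-401 WDR5 peaks the shares were 84.2, 89.4, 92.5 and 88.0% in the same order, and the MM-401 list alone had a higher share for DMSO, 91.9% (91.2 to 92.5%). Peaks in all 4 WDR5 lists, which were wider, lay wholly inside less often, with 63.5% (60.9 to 66.1%) for DMSO and 78.1% (75.9 to 80.1%) for MM-401. The 951 treated-only peaks in DMSO H3K4me2 fell in 917 separate H3K4me2 peaks, so few shared one. Peaks in all 4 WDR5 lists were alike in this, with 1344 in 1303. All MM-401 WDR5 peaks, a far larger set, had 14416 in 11829. Of the 951 treated-only peaks, 35.5% (32.6 to 38.6%) lay in an H3K4me2 peak that also held a DMSO WDR5 peak, and 56.3% (53.1 to 59.4%) in one that held a WDR5 peak of either control. The MM-401 list alone gave 32.3% (31.2 to 33.4%), with an overlapping interval, and 49.9% (48.7 to 51.1%). For EtOH H3K4me2, 60.8% (57.7 to 63.8%) of 1005 treated-only peaks lay with an EtOH WDR5 peak and 69.8% (66.8 to 72.5%) with one of either control, against 49.4% and 59.5%.

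MLL1 was rarely called at treated-only peaks, and about as often as at other WDR5 peaks. In DMSO, 25 of 1057 overlapped an MLL1 peak, or 2.37% (1.61 to 3.47%) against 2.86% of all MM-401 WDR5 peaks. Under MM-401, 72 did, or 6.81% (5.44 to 8.49%) against 5.93%. Both intervals included the value for all peaks. After moves of 10 to 50 kb the shares were 0.284 and 0.918% on average, so both exceeded their surroundings. All MM-401 WDR5 peaks gave 0.319 and 0.778% after the same moves. In both MLL1 lists were 4 peaks, or 0.378% against 0.510%, whereas 1.71% (1.17 to 2.50%) of the peaks in all 4 WDR5 lists were in both. Peaks in all 4 WDR5 lists had more DMSO MLL1, 4.48% (3.55 to 5.64%), without overlap of intervals. Under MM-401 they had 9.41% (8.05 to 11.0%), with overlap. In DMSO the other pairings gave 3.41% (DMSO with EtOH), 3.86% (MM-401 with EtOH) and 3.77% (DMSO with 4OHT), all above treated-only peaks. Under MM-401 they gave 6.42, 5.57 and 6.22%, all below. The DMSO MLL1 list is not on the 25 bp grid and the study's text describes another peak caller for it, so the DMSO and MM-401 shares were not compared with each other.

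Within 1 kb, MLL1 was somewhat more frequent than at WDR5 peaks at large. In DMSO 14.5% (12.5 to 16.7%) of treated-only peaks had an MLL1 peak within 1 kb, against 11.8% of all, and under MM-401 33.4% (30.6 to 36.3%), against 26.1%. Peaks in all 4 WDR5 lists gave 15.7% (13.9 to 17.6%) and 32.3% (30.0 to 34.7%), with overlapping intervals. The pairing of MM-401 with EtOH gave 15.7% (13.7 to 18.0%) and 29.9% (27.3 to 32.6%), which also overlapped. The excess was thus not particular to treated-only peaks.

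Treated-only peaks were spread over all autosomes. Chromosome 11 held the most, 117 of 1057, or 11.1% (9.32 to 13.1%), where it held 7.50% (7.11 to 7.90%) of all MM-401 WDR5 peaks and 8.16% (7.89 to 8.43%) of the 4OHT ones. Chromosome 14 held 2.08% (1.38 to 3.13%) against 3.59% (3.32 to 3.88%). These were the only 2 of 19 autosomes whose intervals did not overlap those of all MM-401 peaks, and no test was made over the 19. The chromosome 11 share was 9.05% (7.47 to 10.9%) in the pairing of DMSO with 4OHT and 8.53% (7.03 to 10.3%) in that of MM-401 with EtOH, both with overlapping intervals, and 6.66% (5.40 to 8.19%) in that of DMSO with EtOH. Another treated-only peak lay within 5 kb of 99 of them, or 9.37% (7.75 to 11.3%). The rule itself allows close neighbours, since 36 treated-only peaks shared their 4OHT peak with another. The same count was not made for all MM-401 WDR5 peaks, so whether treated-only peaks cluster was not tested.

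Single sites showed how these features combine. The 10 widest treated-only peaks ranged from 475 to 600 bp. H3K4me2 of all 4 conditions overlapped 9 of the 10, 5 lay within 1 kb of a control WDR5 peak, and 3 overlapped MLL1 in DMSO or MM-401.

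The widest, from 71185151 to 71185750 on chromosome 12, contained a 4OHT peak of 250 bp. The nearest DMSO WDR5 peak was 1126 bp away and the nearest EtOH one 17176 bp away. It lay inside H3K4me2 peaks of 6850 bp for MM-401, 7225 bp for EtOH and 6500 bp for 4OHT, and an MM-401 MLL1 peak abutted it. For DMSO it spanned a gap between a pair of H3K4me2 peaks, and the bases shared with the 4OHT peak of 250 bp fell in that gap. Another 4OHT WDR5 peak overlapped its left end, inside DMSO H3K4me2.

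The next, on chromosome 16 from 10785326 to 10785900, was the widest with MLL1 in both DMSO and MM-401. Its 4OHT peak was 1000 bp wide and itself touched a control peak, an EtOH WDR5 peak stood 251 bp away and a DMSO one within 1 kb. Its H3K4me2 peaks measured 5400 and 5075 bp for DMSO and MM-401 and 5875 and 5125 bp for EtOH and 4OHT. Here WDR5 was called close by in every condition.

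On chromosome 1, from 182185801 to 182186375, a peak of 575 bp lay 7126 bp from the nearest DMSO and 7226 bp from the nearest EtOH WDR5 peak. It overlapped MLL1 under MM-401, and the H3K4me2 peaks over it were 3950 and 3200 bp wide for DMSO and MM-401 and 3400 and 3750 bp for EtOH and 4OHT. A peak of 550 bp on chromosome 7, from 140096251 to 140096800, was more isolated, with DMSO WDR5 51851 bp and EtOH WDR5 25751 bp away. H3K4me2 peaks over it were nonetheless present throughout, with widths of 1325 bp (DMSO), 1575 bp (MM-401), 1675 bp (EtOH) and 1550 bp (4OHT).

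The widest treated-only peak outside all H3K4me2 was on chromosome 9 from 83975651 to 83976200. It abutted an EtOH WDR5 peak, the nearest DMSO WDR5 peak was 179576 bp away, and the nearest H3K4me2 peak of any list was 20626 bp away. It is the 1 exception among the 10 widest. The other 5 of the 10, on chromosomes 3, 5, 10 and 17, were 475 to 525 bp wide, and 3 of them lay within 1 kb of an EtOH WDR5 peak and over 10 kb from a DMSO one.

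**Figure D5:**
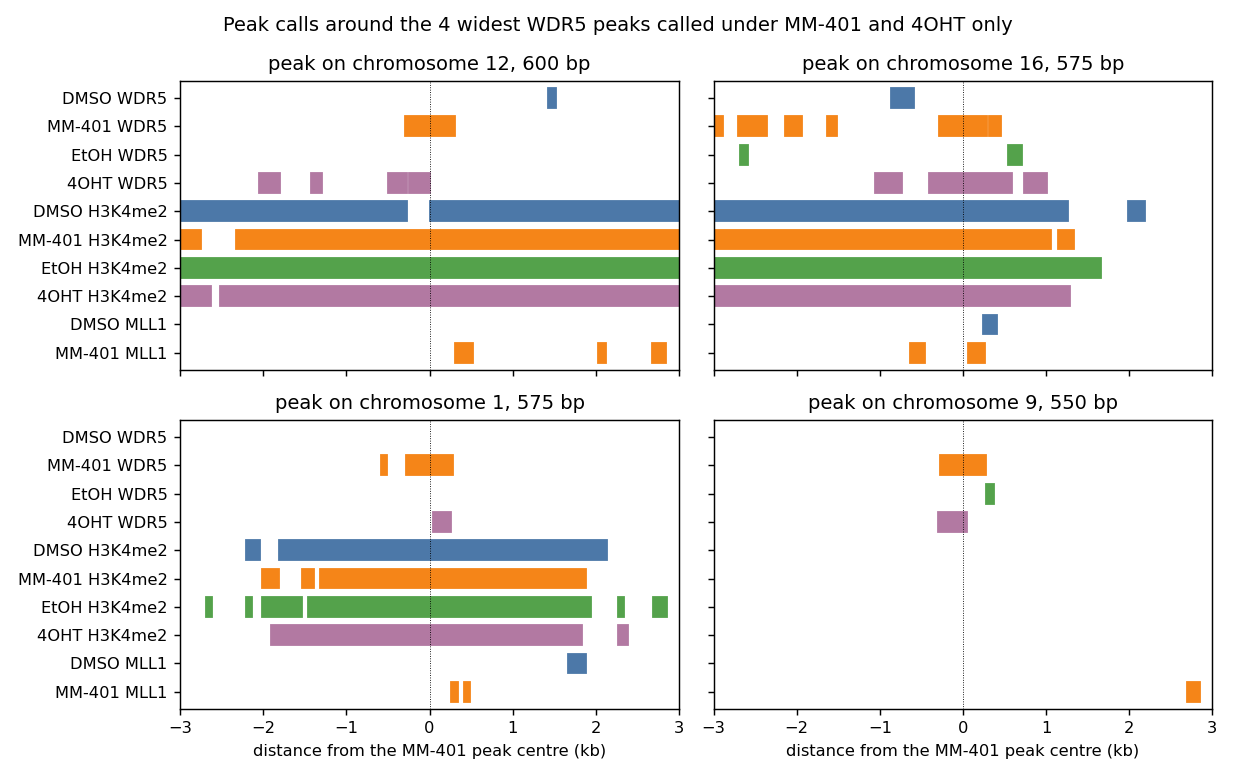
Peak calls of all 10 lists (rows, coloured by condition) within 3 kb of the centres of the 4 widest treated-only peaks (horizontal axes, kb from the MM-401 peak centre). The peaks on chromosomes 16 and 1 lie inside H3K4me2 of all 4 conditions, that on chromosome 12 spans a gap in DMSO H3K4me2, and that on chromosome 9 lies outside H3K4me2 beside an EtOH WDR5 peak.

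Of the 3 peaks with each of the opposite H3K4me2 patterns, the widest is given. The widest with H3K4me2 under both treatments and in neither solvent was 125 bp wide, on chromosome 9 from 109757026 to 109757150. Its H3K4me2 peaks were 400 bp wide under MM-401 and 550 bp under 4OHT, and H3K4me2 lay 26 bp away in DMSO and 76 bp away in EtOH. The widest with the reverse pattern was 250 bp, on chromosome 14 from 65282726 to 65282975, in H3K4me2 peaks of 275 bp in DMSO and 375 bp in EtOH, with the mark abutting it under MM-401 and 51 bp away under 4OHT. At both sites the lists without a call on the peak had H3K4me2 within 76 bp of it.

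The treated-only peak farthest from control WDR5 was on chromosome 3 from 141517351 to 141517525, with EtOH WDR5 266751 bp and DMSO WDR5 404726 bp away. An H3K4me2 peak of 225 bp covered it under MM-401, and the nearest were 8151 bp away in DMSO, 8551 bp in EtOH and 123501 bp under 4OHT.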

How the data were processed

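Chromatin immunoprecipitation with sequencing had been made for WDR5 and H3K4me2 in DMSO, MM-401, EtOH and 4OHT and for MLL1 in DMSO and MM-401, with 1 library per condition and antibody. The deposited files hold the chromosome, start and end of each peak and no score, height or count, so depth was unknown. Peaks were called per library. The submitters' processing notes name Bowtie and build mm9, and the thresholds of the WDR5, H3K4me2 and MM-401 MLL1 lists are not given in the sources used here. Of the 10 lists, 9 carry HPeak names and boundaries on a 25 bp grid and were read as 1-based and inclusive. For the DMSO MLL1 list, which is off the grid, the study's text describes MACS with a significance cutoff on P, and its starts were read as 0-based. The 4 inputs were not analysed here.

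A peak was shared when it had at least 1 bp in common with a peak of the other list. Autosomes were used, and intervals are 95% Wilson intervals. Treated-only peaks were moved by 10, 20, 30, 40 and 50 kb to both sides as a local background. Overlaps were computed with Python 3.11.15, numpy 2.4.6, pandas 2.3.3 and scipy 1.17.1, compared with bedtools 2.31.1 and tested on simulated data, and figures were drawn with matplotlib 3.10.9.

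The peaks, sets and measures were chosen with earlier results of these data known. Regions named by position were the 10 widest, the widest with each of 4 patterns (H3K4me2 under both treatments and in neither solvent, the reverse, no H3K4me2, and MLL1 in both lists), and the one farthest from control WDR5. The H3K4me2 peak widths, flanks, neighbouring control peaks and chromosome counts were added after the data were seen. Alternatives changed the overlap needed, the distance allowed, the widths kept, list length, the list that anchors the peaks, the sex chromosomes, the reading of starts and the moves. Genes, promoters and sequences were not analysed here, because the annotation at hand is of another build.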

Additional observations from a re-analysis of the deposited data

Results flagged for a closer look

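For treated-only peaks the difference between treatment and solvent had opposite signs in the MAF9 and the Mll1 flox cells in 3 measures of H3K4me2, which is what drew attention to them. The share of peaks in H3K4me2 was 5.30 percentage points higher under MM-401 than in DMSO, and its 4OHT minus EtOH difference was -3.60 points. These became 0.317 and -1.19 points with lists matched within 2 kb, and 3.71 and -0.667 points with the peaks counted as 4OHT peaks. The median width of the H3K4me2 peaks over them differed by 400 bp for MM-401 minus DMSO and by -875 bp for 4OHT minus EtOH. The share lying wholly inside the H3K4me2 peak differed by 4.50 and by -3.80 points. All MM-401 WDR5 peaks had the same signs, with 3.57 and -2.38 points, 275 and -575 bp, and 5.20 and -4.50 points. With 1 library per condition, the difference between the cells was not tested, and treatment, cells and library cannot be told apart.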

How the results depend on the processing

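Of 138 values recomputed under 11 alternatives, 88 moved by less than their interval or 1.5 times for a count, and 50 moved further. Only the differences between treatment and solvent could change sign, and 0 of them did. Changes in the order of the 4 pairings, given above, were not part of this count. No paired analysis was possible because each condition and antibody had 1 library and the labels give no replicate numbers.

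When WDR5, H3K4me2 and MLL1 lists were all matched within 2 kb, DMSO with EtOH had 802 peaks, DMSO H3K4me2 was at 93.9% of treated-only peaks against 92.8% of all MM-401 WDR5 peaks, MLL1 in DMSO and MM-401 at 15.8 and 32.9% against 15.5 and 34.1%, the median distance to control WDR5 was 8701 bp, and H3K4me2 called under treatment alone minus solvent alone was 0.317 points for MM-401 and -1.19 points for 4OHT. With 50% of the peak covered, 694 peaks were treated-only and the other pairings had 796 for DMSO with EtOH, 697 for MM-401 with EtOH and 681 for DMSO with 4OHT. H3K4me2 shares were then 84.0 and 91.8% for DMSO and MM-401 and 92.8 and 88.2% for EtOH and 4OHT, MLL1 shares 1.59 and 4.03%, and the MM-401 difference 7.78 points. Here the mark also has to cover 50% of the peak.

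With the widest 50% of every list, the counts in that order were 549, 670, 652 and 505, the median width 225 bp and the median distance 2151 bp. With WDR5 lists reduced to the length of the shortest, 662 peaks were treated-only, with H3K4me2 at 96.4% in EtOH and 93.1% under 4OHT, a median width of 175 bp and a median distance of 776 bp. At least 1 kb from the excluded lists, the counts were 419, 406, 453 and 359, H3K4me2 was at 87.8 and 93.3% for DMSO and MM-401 and at 90.5 and 86.9% for EtOH and 4OHT, MLL1 at 1.19 and 4.53%, and the median distance was 7451 bp.

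Counted as 4OHT peaks, treated-only peaks had H3K4me2 at 92.0% in DMSO and 93.3% under 4OHT against 45.7 and 47.5% of all 4OHT WDR5 peaks, a median width of 175 bp, and differences of 3.71 points for MM-401 and -0.667 points for 4OHT. Starts read as 0-based gave a median width of 149 bp. An alternative chosen after seeing the data, which also required the 4OHT peak to be free of control peaks, gave a median distance of 901 bp. Moves of 10 kb alone gave H3K4me2 at 16.4% under MM-401 and 17.8% under 4OHT, and moves of 50 kb alone 13.3% in DMSO. Adding the sex chromosomes moved no value beyond its interval. The cause of these movements was not tested beyond what each alternative changes. Without read counts, a weak peak just below the calling threshold cannot be told from an absent one.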
